A study of Caenorhabditis elegans with 10 samples.

Results

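The col genes of Caenorhabditis elegans, which encode collagens of the cuticle, were followed across 10 RNA-seq libraries of whole animals. A member was any gene with a symbol made of col- and a number that had 10 or more counts in 2 or more of the 10 libraries. This left 98 of the 156 genes with such a symbol, out of 46907 genes in the count files. Total RNA was sequenced from 5 strains with 2 libraries each: wild type (WT), the unc-104(R9Q) mutant, and 3 strains that carry R9Q with a further change. These are unc-104(R9Q T102I), unc-104(R9Q G265R) and unc-104(R9Q) with a mutation in unc-16 whose allele the labels do not name. They are written T102I, G265R and unc-16 for short, although all 3 have the R9Q change too. UNC-104 is a kinesin motor of neurons and UNC-16 a scaffold protein that binds kinesin. No strain was treated, and the stage of the animals was not given in the labels.

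The cuticle is the collagen-rich coat that the epidermis secretes around the worm, and it is made anew at each larval stage before the old coat is shed in a molt. Its collagens come from a large family of small genes, in which many members are transcribed in waves within each molting cycle and others mark a stage such as the dauer larva or the adult. The collagen chains are modified and trimmed, form trimers and are then crosslinked in the extracellular layer. For most col genes no single function is known, so they are described here by level and pattern.

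The libraries held 6239272 to 7160785 assigned counts, and levels are given as CPM, the counts scaled to library size with TMM factors. A count of 0 allows up to 3 counts, which is 0.387 to 0.503 CPM depending on the library, and this limit covers counting error only. In 3 libraries the mitochondrial genome held 0.0194 to 0.0238% of counts, and in the other 7 it held 1.58 to 5.51%. The 3 were the second libraries of G265R and unc-16 and the first of T102I. No read was counted on unc-104 (4 transcripts) in any library, and unc-16 (20 transcripts) had 0 to 42 counts, so these genes do not check the strain labels. Reads that match more than 1 transcript were not counted, and 96 of the 98 col genes had a single transcript. Among the 58 col genes that were not members, 23 had several transcripts and 12 had no count in any library, 9 of these with several transcripts. In RNA from whole animals, a difference in the number of cells of a type and a difference in RNA per cell cannot be told apart.

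Close to the limit of membership, col-151 had 16 and 13 counts in its highest libraries and col-178 had 17 and 13. Just outside, col-50 had 10 and 8 counts and col-83 had 10 and 8. In all, 6 members reached 10 counts in exactly 2 libraries and 8 other col genes reached it in 1 library. By contrast, 45 members reached it in all 10. The dauer collagen gene col-2 had at most 2 counts in a library and was no member. Of the adult collagen genes, col-7 had at most 4 counts. The other adult gene, col-19, had 11 counts in unc-16 replicate 1 and at most 3 elsewhere. The transmembrane collagen gene col-99, with 17 transcripts, had at most 6 counts. The members lay on all 6 chromosomes, with 26 on V, 22 on IV, 15 on II, 14 on X, 11 on I and 10 on III. Their exons spanned 870 to 2791 bases, with a median of 1012.

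Col genes together were more abundant in WT than in R9Q, and the libraries of the suppressed strains lay between and beyond. Their summed level was 23959 and 23555 CPM in WT and 12522 and 11915 CPM in R9Q. The means were 23757 ± 285 CPM and 12218 ± 429 CPM (SD, n = 2), a ratio of 1.94, and the libraries of the strains did not overlap. The sum was 22507 and 14491 CPM in T102I and 12272 and 21493 CPM in G265R. For unc-16 it was 9938 and 17993 CPM. In each suppressed strain the library of low mitochondrial share was the one with the higher sum. As a share of assigned counts, members held 2.42% in WT replicate 1 (95% Wilson interval 2.41 to 2.43) and 0.945% in unc-16 replicate 1 (0.938 to 0.953), the highest and the lowest of the 10.

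**Figure D1:**
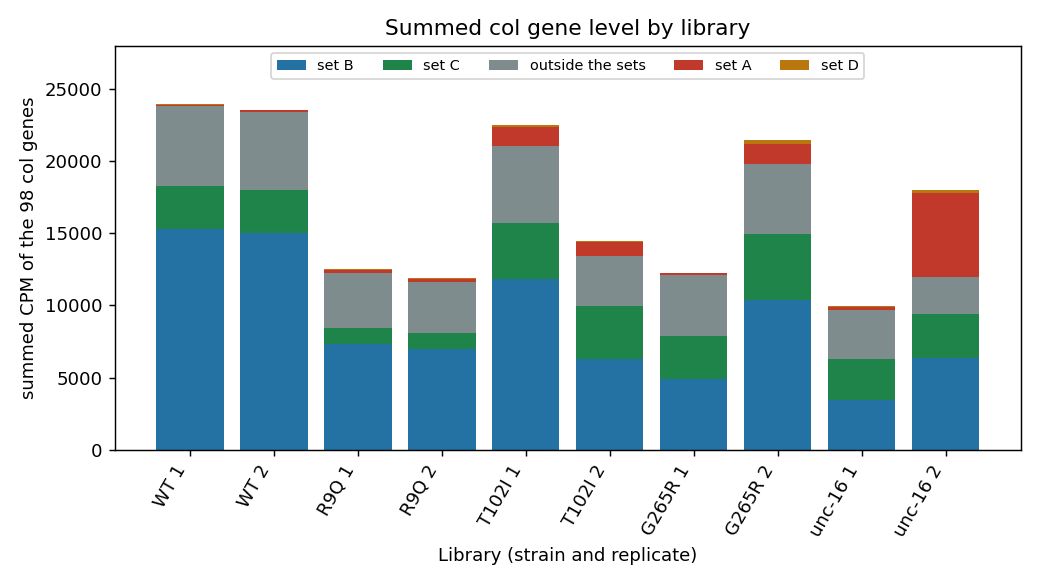
Summed CPM of the 98 col genes (vertical axis) in each of the 10 libraries (horizontal axis), with the part of each set of genes that varied together stacked in colour. Set B made up 15293 of 23959 CPM in WT replicate 1, and set A made up 5814 of 17993 CPM in unc-16 replicate 2.

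A few members carried most of this signal. The 5 most abundant held 73.3 and 73.0% of the summed level in WT, 73.5 and 73.4% in R9Q and 43.9% in unc-16 replicate 2. Per kb of exon, the mean over the 10 libraries was 2494 CPM for col-42, 2273 for col-107, 1911 for col-98, 1721 for col-103, 1461 for col-147 and 1278 for col-10. After these 6 the level dropped to 745 CPM per kb for col-144, 628 for col-39, 394 for col-94 and 373 for col-80. At the other end, between 0 and 9 members had no count in a library. The exons of col-147 (1178 bases) share 228 bases with T06E4.5. Since the strand setting of the counting is not given in the sources used here, reads of such overlapping genes cannot be told apart. In all, 26 members share exon bases with another gene, 11 of them over 100 bases. Members of near-identical sequence may also share reads, which was not tested.

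The 2 libraries of G265R and of unc-16 differed in many col genes, while those of WT, R9Q and T102I differed in few. Between the 2 libraries of a strain, 6 members differed by more than 2-fold in WT, 6 in R9Q and 7 in T102I, but 47 did for G265R and 61 for unc-16. As a share of the members this was 6.12, 6.12, 7.14, 48.0 and 62.2%, against 3.47, 2.64, 18.8, 33.3 and 35.8% of all tested genes. A pseudocount of 0.5 CPM was added for this count. In G265R 76 members were higher in replicate 2, and in unc-16 73 were. In T102I 79 were higher in replicate 1, mostly by less than 2-fold. In unc-16 replicate 2 alone, 42 of the 98 members had their highest level of the 10 libraries.

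**Figure D2:**
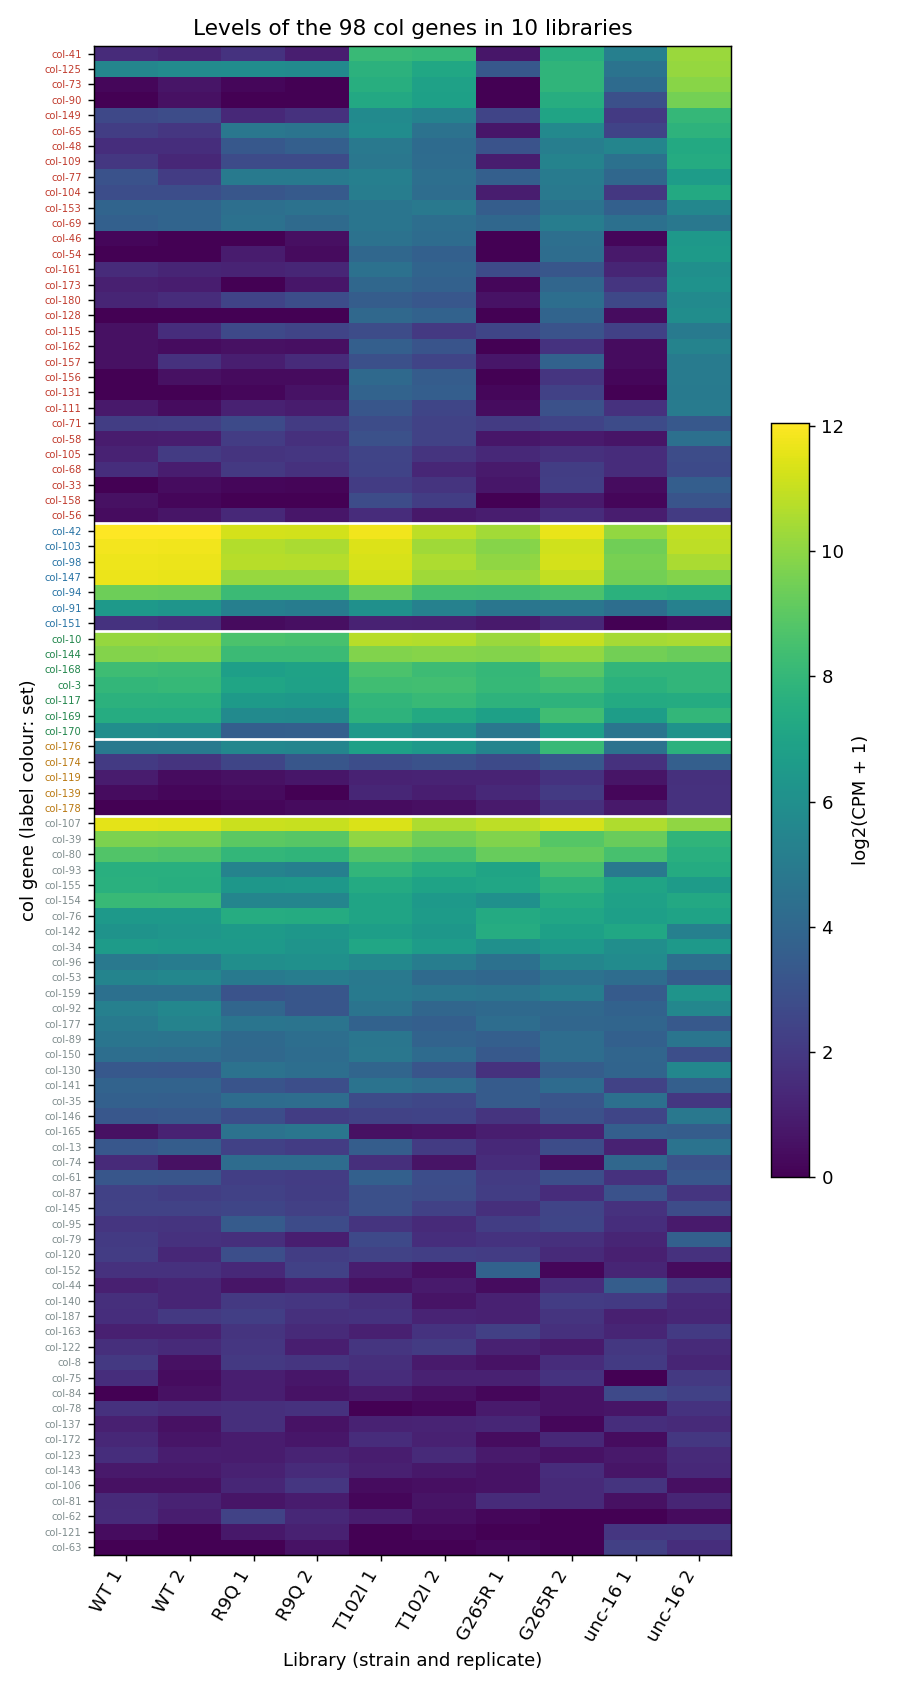
Levels of the 98 col genes (rows) in the 10 libraries (columns) as log2(CPM + 1), grouped by set from top to bottom: A in red, B in blue, C in green, D in orange and the 48 members in no set in grey. By its median, set A is dark in WT, R9Q and G265R replicate 1 and brighter in both T102I libraries, G265R replicate 2 and unc-16 replicate 2. Some rows depart from this. For example, col-125 is at 45.8 to 56.7 CPM in WT and R9Q, and col-58 is at 0.839 CPM in G265R replicate 2.

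Members that varied together were found by average linkage on 1 minus Pearson's r of log2(CPM + 1) over the 10 libraries, with the tree cut at 0.3 and at least 5 members per set. This gave 4 sets with 31, 7, 7 and 5 members, called A to D, and 48 members in no set. The points behind each r share their libraries and depth, so the sets are a description and carry no test. With the tree cut at 0.2 or 0.4, which was chosen after the data were seen, the largest set had 23 or 36 members.

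By its median, set A was low in WT and R9Q and high in 4 libraries. Its median level was 1.06 and 1.40 CPM in WT, 1.61 and 1.80 CPM in R9Q, and 15.6 and 12.2 CPM in T102I. In G265R it was 0.640 and 14.9 CPM, and in unc-16 2.61 and 52.6 CPM. Both T102I libraries, G265R replicate 2 and unc-16 replicate 2 were thus high, and G265R replicate 1 was the lowest of all. Of the 4 high libraries, 3 are those of low mitochondrial share and the fourth, T102I replicate 2, had a share of 4.95%. Whether this share has a part in the pattern was not tested.

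On the log2(CPM + 1) scale col-73 had the widest range of the family, at 0.152 and 0.621 CPM in WT, 0.147 and 0 in R9Q, 186 and 118 in T102I, 0 and 232 in G265R, and 17.5 and 953 in unc-16. col-41 (chromosome X, 15175032 to 15176481, ce11) was at 1.82 and 1.40 CPM in WT, 2.35 and 1.03 in R9Q, 285 and 261 in T102I, 0.640 and 192 in G265R, and 35.5 and 1192 in unc-16. Both genes were near 0 in 5 libraries and above 100 CPM in the 4 high ones. col-90 (chromosome III, 7948838 to 7950068, ce11) had 0 and 0.466 CPM in WT and 0 in both R9Q libraries. In the other strains col-90 was at 153 and 115 CPM in T102I, 0 and 182 in G265R, and 6.60 and 732 in unc-16. Its T102I mean of 134 ± 27.3 CPM (SD, n = 2) was at least 324-fold above R9Q when each R9Q library is put at 3 counts.

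Other members of set A had a base level in WT and R9Q. col-125 was at 45.8 and 55.0 CPM in WT, 56.7 and 53.5 in R9Q, 209 and 145 in T102I, 8.81 and 238 in G265R, and 23.03 and 1120.2 in unc-16. In G265R replicate 1 and unc-16 replicate 1 it lay below all WT and R9Q libraries, and in their partners above them. col-65 was at 3.50 and 2.80 CPM in WT, 26.7 and 23.8 in R9Q, 57.0 and 22.5 in T102I, 0.640 and 49.3 in G265R, and 4.30 and 221 in unc-16. col-149 was at 5.17 and 6.06 CPM in WT, 1.61 and 2.32 in R9Q, 53.99 and 39.8 in T102I, 4.48 and 130.1 in G265R, and 3.07 and 259 in unc-16. For col-65 R9Q was the higher of WT and R9Q, and T102I replicate 2 lay below both R9Q libraries. For col-149 WT was the higher of that pair, and the 4 high libraries were those of the set. col-109 ranged from 0.961 CPM in G265R replicate 1 to 169 CPM in unc-16 replicate 2. The members closest to the mean profile of set A were col-54, col-111 and col-128. In WT, R9Q and G265R replicate 1 no count fell on col-128, against 15.6 and 12.9 CPM in T102I, 13.9 in G265R replicate 2, and 0.307 and 58.9 in unc-16. The exons of col-128 share 219 of 1352 bases with F12F6.17. At the flat end of the set, col-69 stayed between 11.9 and 33.2 CPM and col-71 between 3.20 and 8.84 CPM.

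**Figure D3:**
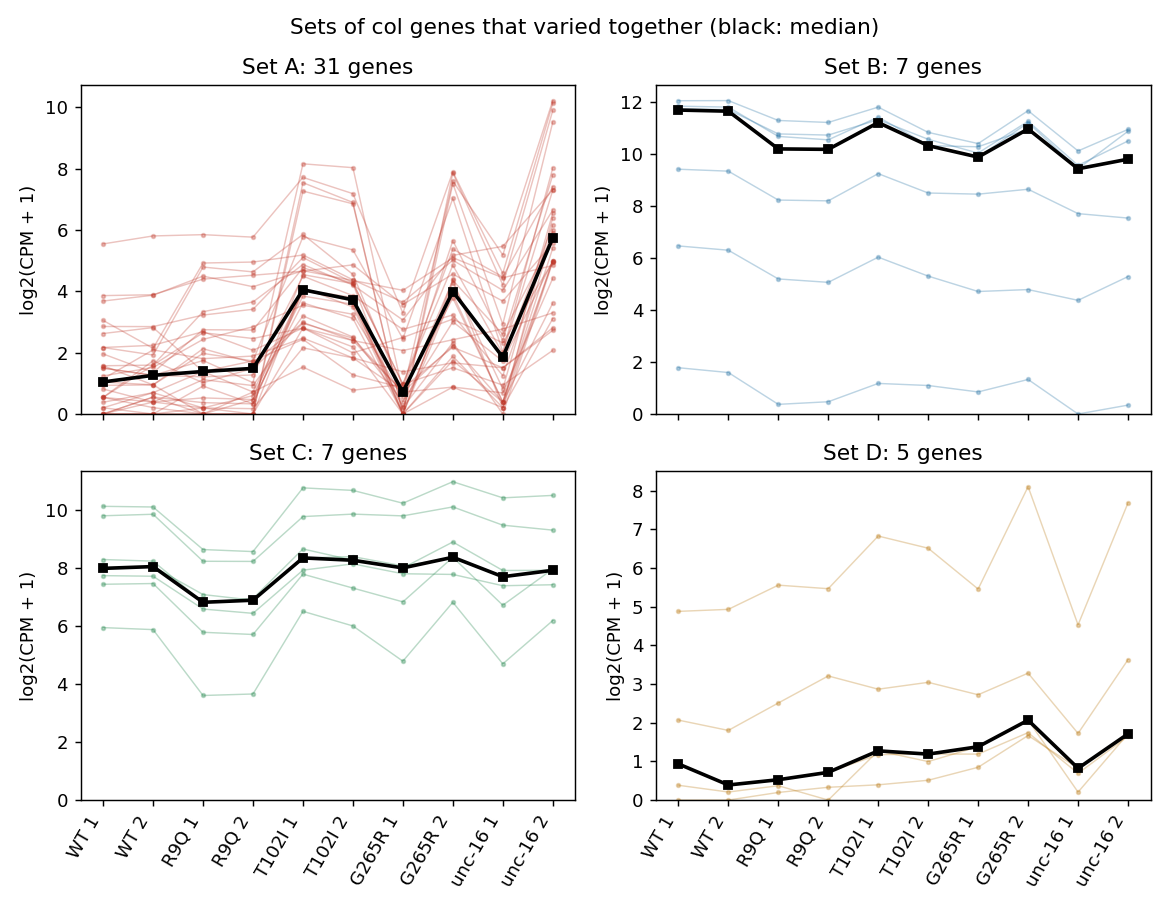
Level of each member as log2(CPM + 1) (vertical axis) in the 10 libraries (horizontal axis), 1 panel per set, with the median of the set in black. Lines join the values of 1 gene and imply no order of libraries. Set A peaks in unc-16 replicate 2, at a median of 52.6 CPM, set B is highest in WT and set C is lowest in R9Q.

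Set B held 5 of the 10 genes ranked above by level per kb (col-42, col-98, col-103, col-147 and col-94), with the less abundant col-91 and col-151. Its summed level was 15293 and 14996 CPM in WT, 7347 and 7002 in R9Q, 11826 and 6274 in T102I, 4929 and 10412 in G265R, and 3473 and 6370.2 in unc-16. WT was the highest strain, and the 2 libraries of each suppressed strain differed widely. col-42 (chromosome V, 18638484 to 18639591, ce11) was at 4208 and 4221 CPM in WT and 2486 and 2358 in R9Q. It was at 3547 and 1810.0 CPM in T102I, 1343 and 3227 in G265R, and 1104 and 1958 in unc-16. No library of another strain reached the WT level of col-42. col-98 was at 3396 and 3319 CPM in WT and 750.2 and 1439 in unc-16, and col-103 at 3640.3 and 3549.6 CPM in WT and 686 and 1865 in unc-16. The least abundant, col-151, had 2.43 and 2.02 CPM in WT and 0 and 0.268 in unc-16, and shares 149 exon bases with AC3.14.

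Set C was lowest in R9Q in both libraries and near or above WT in the suppressed strains. It held col-3, col-10, col-117, col-144, col-168, col-169 and col-170. Its summed level was 3009 and 3020.2 CPM in WT, 1100.5 and 1062 in R9Q, 3876 and 3693 in T102I, 2967 and 4559 in G265R, and 2812 and 3045 in unc-16. No library of another strain came as low as R9Q, and unlike sets A and B the sum varied little between the 2 libraries of T102I and unc-16. col-10 (chromosome V, 9164292 to 9165307, ce11) was at 1113 and 1095 CPM in WT, 396 and 377 in R9Q, 1729 and 1628 in T102I, 1199 and 2005 in G265R, and 1362 and 1445 in unc-16. col-170 was at 60.5 and 57.6 CPM in WT, 11.2 and 11.6 in R9Q, 89.7 and 63.0 in T102I, 26.6 and 112 in G265R, and 24.9 and 71.8 in unc-16. col-10 was above WT in all 6 suppressed libraries, and col-170 lay below WT in G265R replicate 1 and unc-16 replicate 1.

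Set D had 5 members, of which col-176 was the abundant one. It was at 28.4 and 29.5 CPM in WT, 46.1 and 43.2 in R9Q, 113 and 90.3 in T102I, 42.9 and 274 in G265R, and 22.1 and 205 in unc-16. The order resembles that of set A, but G265R replicate 2 and not unc-16 replicate 2 was the highest library. The other 4, col-119, col-139, col-174 and col-178, reached at most 11.4 CPM, and col-119 reached at most 2.35 CPM.

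Among the 48 members in no set, a few had patterns of their own. col-165 (chromosome X, 4353618 to 4354852, ce11) was at 0.456 and 1.24 CPM in WT, 22.3 and 25.3 in R9Q, 0.472 and 0.569 in T102I, 0.961 and 1.17 in G265R, and 11.4 and 10.6 in unc-16. The R9Q and unc-16 libraries were high and the other 6 low, with no overlap and little difference between the libraries of a strain. col-74 was at 1.67 and 0.466 CPM in WT, 18.1 and 18.4 in R9Q, 2.05 and 0.569 in T102I, 1.92 and 0.336 in G265R, and 15.5 and 6.96 in unc-16. Over the 10 libraries it was the member most like col-165 (Pearson's r of log2(CPM + 1) = 0.928), followed by col-121 (r = 0.772) and col-106 (r = 0.696). Some of its exon bases are shared with gtap-1. col-107, the second most abundant gene per kb, was at 3038 and 2933 CPM in WT, 2192 and 2066 in R9Q, and 1548 and 1057 in unc-16. col-39 and col-80, which lie 1181 bases apart on chromosome II, were lowest in unc-16 replicate 2, at 232 and 192 CPM, against 802 and 436 CPM in WT replicate 1. col-76 had the reverse order of WT and R9Q, at 86.8 and 86.8 CPM in WT and 174 and 169 in R9Q. col-44 reached 10.9 CPM in unc-16 replicate 1, and col-152 12.97 CPM in G265R replicate 1 but 0.168 CPM in its partner.

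R9Q was compared with WT to see which col genes differed between these strains. In R9Q col-165 was higher, and col-144 and col-117 were lower. From the values of col-165 given above, its log2 fold change was 4.78 (SE 0.51, adjusted p = 0.025 by edgeR's quasi-likelihood test with Benjamini-Hochberg adjustment). col-165 had 3 and 8 counts in WT, 3 and 4 in T102I and 6 and 7 in G265R. These are near the counting limit, so the size of its folds involving these strains is uncertain. col-144 (chromosome V, 9159586 to 9160642, ce11) was at 888 and 920.5 CPM in WT and at 299 and 298 CPM in R9Q. This was a log2 fold change of -1.60 (SE 0.21, edgeR adjusted p = 0.0417), and the strains did not overlap. col-117 was at 212 and 209 CPM in WT and 94.8 and 85.5 CPM in R9Q, a log2 fold change of -1.22 (SE 0.18, edgeR adjusted p = 0.04995).

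Beyond these 3 of 98 members, against a share of 0.31% called over all 12267 tested genes, the difference between R9Q and WT ran in both directions. By fold alone, 24 members were more than 2-fold higher in R9Q and 24 more than 2-fold lower, against 7.32 and 6.67% of all genes. Counts by fold and by overlap, in this and the later comparisons, keep members below the counting limit in both strains, here 11 of 98. Folds of such members are uncertain. Both R9Q libraries lay above both WT libraries for 33 members and below for 38, against 31.8 and 32.6% of all genes. The median log2 difference over 87 members not below the counting limit in both strains was 0.01, against 0.00 for all genes. All 7 members of set B and all 7 of set C were lower in both R9Q libraries. Their median log2 differences were -1.21 and -1.51, and the sets were made from these same values. In set A, 15 members were higher in both R9Q libraries and 4 were lower.

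Differences that missed the test were ranked among genes with a mean of at least 50 counts over the 10 libraries and no overlap between the strains. The 3 largest downward were those of col-154, col-170 and col-93. The 3 largest in the other direction were those of col-54, col-65 and col-77. col-154 was at 276 and 285 CPM in WT and at 43.7 and 43.6 CPM in R9Q (log2 fold change -2.68, SE 0.43, edgeR adjusted p = 0.0679). col-93 was at 194 and 192 CPM in WT and 40.5 and 35.3 CPM in R9Q, and col-170 at 60.5 and 57.6 and at 11.2 and 11.6 CPM (edgeR adjusted p = 0.440 and 0.355). Upward, col-65 had a log2 fold change of 2.998 (SE 1.90, edgeR adjusted p = 0.887). col-77 was at 7.30 and 3.42 CPM in WT and 29.4 and 30.0 CPM in R9Q (log2 fold change 2.47, SE 0.89, edgeR adjusted p = 0.501). col-54, with no count in WT, had 0.881 and 0.258 CPM in R9Q, close to the counting limit. It reached the mean of 50 counts only through the other strains. Just under that count, col-74 (values above) had a larger log2 fold change of 4.07 (SE 0.96, edgeR adjusted p = 0.220), also with no overlap.

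**Figure D4:**
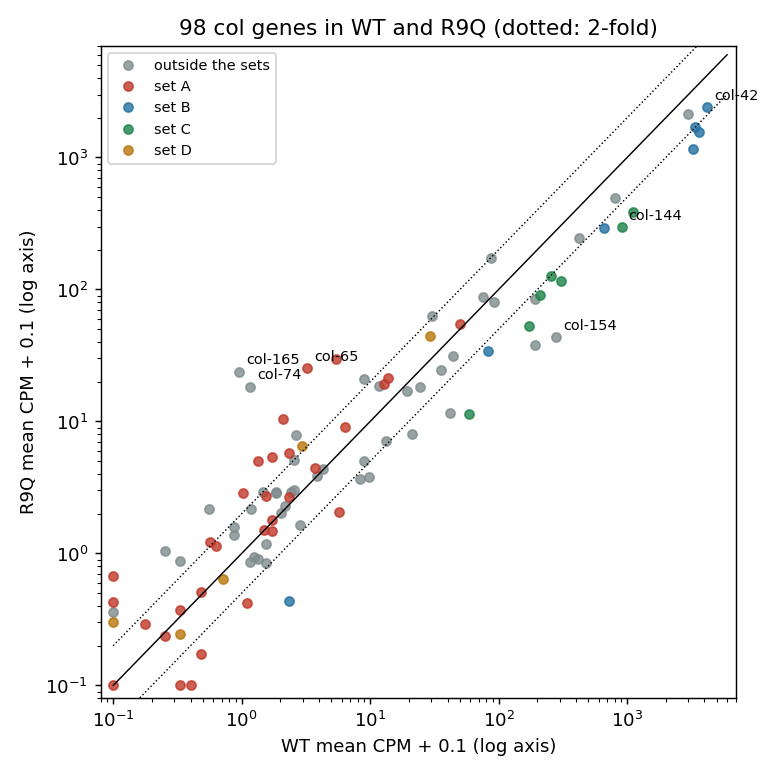
Mean CPM + 0.1 of 2 libraries in WT (horizontal axis) and R9Q (vertical axis) for the 98 col genes, on log axes, with colours by set. The solid line marks equal levels and the dotted lines 2-fold. Sets B and C lie below the line, and col-165 and col-74 lie far above it.

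The number of calls changed with the libraries in the fit. Fitted on the 4 libraries of WT and R9Q alone, 50 of 71 tested members were called, 20 higher and 30 lower (70.4%), against 37.7% of all genes with 17.7% higher and 20% lower. With any 1 of the WT, R9Q or T102I libraries left out of the 10, few or no genes were called at all, and no members were.

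T102I was compared with R9Q to see which col genes differed between these strains. col-117, col-10, col-144 and col-3, all of set C, rose, and col-165 fell. col-10 was at 1729 and 1628 CPM in T102I and 396 and 377 CPM in R9Q, with a log2 fold change of 2.12 (SE 0.29, edgeR adjusted p = 0.0285). col-144 was at 871 and 924 CPM in T102I (log2 fold change 1.59, SE 0.21, edgeR adjusted p = 0.0285). col-3 was at 324 and 334 CPM in T102I and 134 and 117 CPM in R9Q (log2 fold change 1.39, SE 0.20, edgeR adjusted p = 0.0315). All of these were separate from R9Q, and col-144 lay at the WT level, within 871 to 924 CPM in T102I against 888 and 920.5 CPM in WT. col-117 was at 242 and 281 CPM (log2 fold change 1.53, SE 0.18, edgeR adjusted p = 0.0183). col-165 stood at 0.520 ± 0.0682 CPM in T102I against 23.8 ± 2.09 CPM in R9Q (SD, n = 2; log2 fold change -5.46, SE 0.53, edgeR adjusted p = 0.00942).

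These 5 of 98 members compare with 0.562% of all genes called. More than 2-fold differences went up in 38 members and down in 12, against 10.1 and 10.2% of all genes. Both T102I libraries were above both R9Q libraries for 50 members and below for 18, against 27.9 and 26.9% of all genes. The median log2 difference was 0.68 over 96 members, against -0.01 for all genes. Of set A, 23 of 31 members had both T102I libraries above R9Q and none below, with a median log2 difference of 1.98. No member of set A passed the test, and its lowest edgeR adjusted p was 0.311. col-35 was at 5.82 and 4.98 CPM in T102I and 18.3 and 18.6 CPM in R9Q without passing the test (edgeR adjusted p = 0.442), and it shares 515 of 1029 exon bases with C15A11.2. With the 4 libraries of the 2 strains alone, 28 members were called higher and 3 lower (36.9% of 84 tested), against 7.29% of all genes. Without 1 R9Q or T102I library 0 members were called, and without 1 WT library 1, against 0.0408% of all genes. Without unc-16 replicate 1 or 2 there were 8 each, against 2.15 and 2.25%.

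In G265R against R9Q no member was called by edgeR, against 0% of all genes. At an unadjusted p under 0.05 there were 22 members, against 8.71% of all genes, and the Wald test of DESeq2 called 12 higher and 2 lower, against 1.87%. The difference was more than 2-fold upward for 39 members and downward for 11, against 8.95 and 9.26% of all genes. Both G265R libraries were above R9Q for 27 and below for 20, against 21.2 and 22.2% of all genes, and the median log2 difference was 0.37, against 0.01 for all genes. All 7 members of set C were above R9Q in both libraries. The lowest edgeR adjusted p of that set was 0.0956. col-165 had a log2 fold change of -4.46 (SE 0.50, edgeR adjusted p = 0.0956), with both libraries far below R9Q. col-93 was at 132 and 364 CPM and col-149 at 4.48 and 130.1 CPM, with log2 fold changes of 2.71 and 5.08 over R9Q (edgeR adjusted p = 0.373 and 0.535). col-130 was at 2.24 and 10.9 CPM in G265R and at 22.0 and 19.7 CPM in R9Q (edgeR adjusted p = 0.614). In set A, 26 of the 31 members had G265R libraries that overlapped with R9Q. Without unc-16 replicate 1 or 2 there were 3 members called each, against 0.122 and 0.139% of all genes.

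In unc-16 against R9Q col-10 rose, from 396 and 377 CPM to 1362 and 1445 CPM (log2 fold change 1.86, SE 0.28, edgeR adjusted p = 0.0392). It was 1 of 98 members, against 0.668% of all genes called. More than 2-fold differences went up in 45 members and down in 9, against 13 and 13.7% of all genes. Both unc-16 libraries were above R9Q for 27 and below for 18, against 22.8 and 29.7% of all genes. The median log2 difference was 0.83 over 97 members, against -0.05 for all genes. All 7 members of set C were above R9Q in both libraries and 5 of 7 members of set B were below, with median log2 differences of 1.17 and -0.57. In set A, 12 members were above in both libraries and 19 overlapped. col-53 was at 18.6 and 10.3 CPM in unc-16 and 29.6 and 33.1 CPM in R9Q (edgeR adjusted p = 0.182). col-165 was closer to R9Q than in the other suppressed strains, at 10.97 ± 0.555 CPM (SD, n = 2), with a log2 fold change of -1.12 (SE 0.42, edgeR adjusted p = 0.205). Without 1 WT, R9Q or T102I library, where few or no genes were called at all, no members were called. Without G265R replicate 1 or 2 there were 6 and 5, against 2.62 and 2.45% of all genes, and without unc-16 replicate 1 or 2 there were 12 and 3, against 4.43 and 5.94%. With the 4 libraries alone there were 0, against 0% of all genes.

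**Figure D5:**
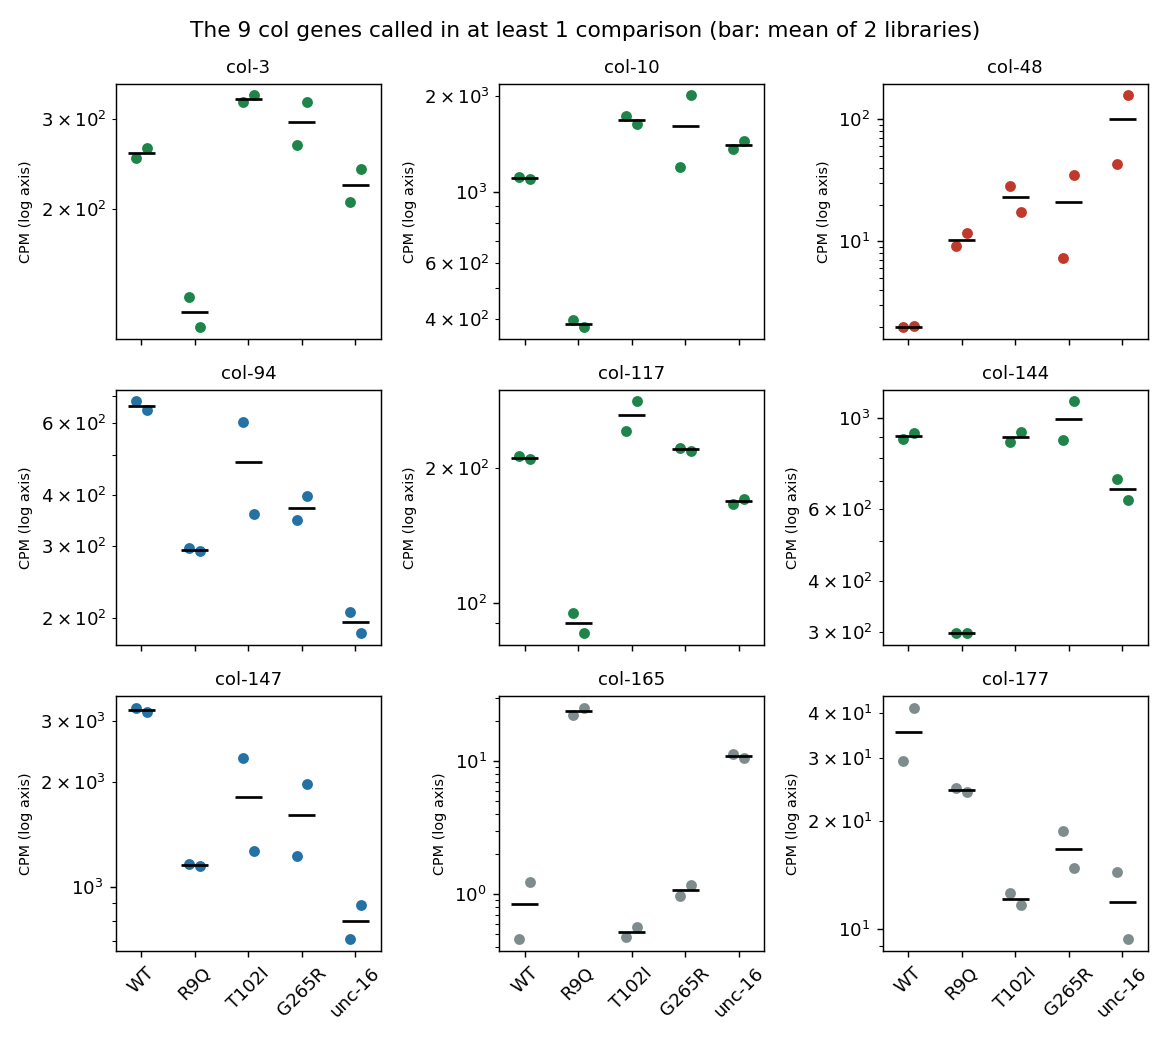
CPM (vertical log axis, a range of its own in each panel) of the 9 col genes called in at least 1 comparison, by strain (horizontal axis), with each library as a point and the mean of 2 libraries as a bar. col-3, col-10, col-117 and col-144 are lowest in R9Q, and col-165 is high in R9Q and unc-16.

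Each suppressed strain was also set beside WT, with WT libraries shared by these comparisons. In T102I against WT no member was called by edgeR, against 0.0978% of all genes, while 16 had an unadjusted p under 0.05, against 10.6%. DESeq2 called 2 higher and 1 lower, close to the 2.99% of all genes it called. More than 2-fold differences went up in 32 members and down in 8, against 9.35 and 9.44% of all genes. Both T102I libraries were above WT for 49 and below for 20, against 28.3 and 26.2% of all genes. Of the 31 members of set A, 29 were above WT in both libraries, and all 7 of set B were below. col-54, with no count in WT, was at 15.4 and 11.8 CPM, at least 29.5-fold higher, and col-128 was at least 30.9-fold higher. col-177 was at 12.6 and 11.7 CPM in T102I and 29.3 and 41.3 CPM in WT (log2 fold change -1.54, SE 0.33, edgeR adjusted p = 0.171). With the 4 libraries alone, 18 members were called higher and 1 lower (23.2% of 82 tested), against 4.07% of all genes. Without unc-16 replicate 1 or 2 there was 1 member called, against 0.799 and 0.856% of all genes.

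In G265R against WT no member was called by edgeR either, against 0.465% of all genes, while 16 had an unadjusted p under 0.05, against 12.6%. DESeq2 called 2 higher and 1 lower, against 3.72% of all genes. More than 2-fold differences went up in 33 members and down in 12, against 10.4 and 11% of all genes. Both G265R libraries were above WT for 24 and below for 24, against 23 and 25.8% of all genes. All 7 members of set B were below WT in both libraries, with a median log2 difference of -0.95. col-91 of this set was at 25.1 and 26.5 CPM in G265R and 87.0 and 77.5 CPM in WT (log2 fold change -1.67, SE 0.36, edgeR adjusted p = 0.134). col-92 was at 16.2 and 15.8 CPM in G265R and 37.4 and 46.0 CPM in WT (edgeR adjusted p = 0.392). All 5 members of set D were above WT in both libraries, but the set was made from these same values. Its members col-119, col-139 and col-178 had few counts, with 0 to 6 in WT and 5 to 19 in G265R. The abundant member col-176 had a log2 fold change of 2.45 (SE 1.05, edgeR adjusted p = 0.396). col-48 was at 7.37 and 35.1 CPM in G265R and 1.98 and 2.02 CPM in WT (log2 fold change 3.40, SE 0.88, edgeR adjusted p = 0.182). col-161 was at 5.76 and 8.39 CPM in G265R and 1.82 and 1.40 CPM in WT (edgeR adjusted p = 0.549). Without unc-16 replicate 2, 1 member was called, against 1.35% of all genes.

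In unc-16 against WT col-165 and col-48 rose, and col-94, col-147 and col-177 fell. col-165 was at 11.4 and 10.6 CPM in unc-16 and 0.456 and 1.24 CPM in WT (log2 fold change 3.67, SE 0.49, edgeR adjusted p = 0.0123). col-48 was at 43.3 and 158 CPM in unc-16 and 1.98 and 2.02 CPM in WT (log2 fold change 5.64, SE 0.95, edgeR adjusted p = 0.0236). Both genes were above WT in both libraries, and col-48 differed more between the unc-16 libraries. col-94 was at 207 and 184 CPM in unc-16 and 678 and 644 CPM in WT (log2 fold change -1.76, SE 0.27, edgeR adjusted p = 0.0206). col-147 was at 707 and 886 CPM in unc-16 and 3282 and 3184 CPM in WT (log2 fold change -2.02, SE 0.37, edgeR adjusted p = 0.0315). col-177 was at 14.4 and 9.37 CPM in unc-16 and 29.3 and 41.3 CPM in WT (log2 fold change -1.57, SE 0.33, edgeR adjusted p = 0.0407). These 3 genes were below WT in both libraries, and so were all 7 members of set B, with a median log2 difference of -1.62.

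These 5 of 98 members compare with 4.46% of all genes called in unc-16 against WT. More than 2-fold differences went up in 45 members and down in 13, against 14.3 and 15.9% of all genes. Both unc-16 libraries were above WT for 29 and below for 25, against 24.2 and 31.9% of all genes. The median log2 difference was 0.68, against -0.07 for all genes. In set A, 29 of 31 members were more than 2-fold higher, and 17 were above WT in both libraries. col-128 was at least 64.2-fold above WT by its mean, which rests on the 58.9 CPM of replicate 2. col-54 was at 0.768 and 93.1 CPM in unc-16 and had no count in WT. Without 1 WT or R9Q library, where far fewer genes were called at all, no members were called. Without T102I replicate 1 fewer were called too, of members and of all genes. Without 1 G265R or unc-16 library more of all genes were called. The members called also rose without either G265R library and without unc-16 replicate 1. With the 4 libraries alone 0 members were called, against 0% of all genes.

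Neighbouring col genes on a chromosome did not always vary together. Of 29 pairs of col genes within 10 kb, 16 had both genes among the members. Their median r of log2(CPM + 1) over the 10 libraries was 0.574, against 0.147 over all 4753 pairs of members. The closest in pattern were col-169 and col-170 on chromosome X, 1646 bases apart (r = 0.981), and col-117 and col-3 on chromosome IV, 587 bases apart on opposite strands (r = 0.980). col-168 and col-169, in the same row of genes on X, had r = 0.914. On chromosome V, col-145 lies between col-144 and col-10 of set C and was at 2.08 to 6.61 CPM, with r of -0.07 and 0.07 to them. col-149 of set A and its neighbour col-150, 693 bases away, had r = -0.20. col-94 was most like col-147, on another chromosome (r = 0.963), and col-177 most like col-53 (r = 0.845).

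Cuticle genes outside the col family were followed through 2 lists. The other cuticle collagens (dpy, sqt, rol, bli and lon genes, whose mutants have a changed body shape or blistered cuticle) were matched for 19 of 20 listed genes, with rol-6 and sqt-1 at 0. Their summed level was 15.4 and 15.4 CPM in WT, 49.8 and 46.1 in R9Q, 2169.5 and 1461 in T102I, 13.6 and 1908 in G265R, and 182 and 9222 in unc-16. This is the order of libraries seen in set A, and r of the log2 sum with the mean profile of set A was 0.977 over 10 libraries. Molting genes (14 listed, such as mlt-8, noah-2 and lpr-3, with mlt-11 and noah-1 at 0) summed to 100.2 and 107 CPM in WT, 94.7 and 84.6 in R9Q, 807 and 847 in T102I, 70.6 and 745 in G265R, and 202 and 3099 in unc-16 (r = 0.984 with set A). A sum follows its most abundant genes, and not every listed gene followed set A. nas-36 was at 13.8 and 15.4 CPM in WT but 4.56 and 12.8 in T102I. mlt-2 was lowest in G265R replicate 2, at 10.4 CPM. Among the other collagens, dpy-17 was at 18.8 and 14.2 CPM in R9Q and 3.62 and 1.99 in T102I. bli-2 stayed between 0.466 and 2.18 CPM. Of 16 tested other collagens, 1 was called higher in R9Q against WT and 1 lower in T102I against R9Q. In unc-16 against WT 1 was called higher. Of all genes, 0.31, 0.562 and 4.46% were called in these comparisons. In the other 4 comparisons 0 of these collagens were called, against 0 to 0.668% of all genes. Of 11 tested molting genes none was called in any of the 7, where 0 to 4.46% of all genes were called.

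The listed collagen dpy-14 was at 1.06 and 0.932 CPM in WT, 17.5 and 17.4 in R9Q, 0.315 and 0.284 in T102I, 0.480 and 0.168 in G265R, and 19.5 and 46.9 in unc-16. It was high and low in the same strains as col-165. dpy-5, by contrast, was at 0.152 and 0 CPM in WT and 21.2 and 1659.5 CPM in unc-16, as in set A. Of 13 genes that modify or process collagen, 4 were at 0 in all libraries, and the others summed to 694 to 1037 CPM. Within this list dpy-18, a subunit of collagen prolyl 4-hydroxylase, was at 124 and 129 CPM in WT, 110.4 and 110.3 in R9Q, 375 and 264 in T102I, 109 and 238 in G265R, and 166 and 376 in unc-16. Its 4 highest libraries were those of set A, while mlt-7, the most abundant of the list in WT, was lowest in unc-16 replicate 2, at 159 CPM. Of 6 epidermal markers, lin-26 and elt-1 were at 0, and the sum ranged from 86.0 CPM in unc-16 replicate 1 to 589.7 CPM in its partner, with 100.2 and 103 in WT, 86.4 and 95.6 in R9Q, 267 and 199.5 in T102I and 149 and 343 in G265R. The range of this sum came mostly from wrt-10, at 1.03 to 3.84 CPM in the 6 lower libraries and 82.9 to 414 CPM in the 4 high ones of set A. grd-3 stayed between 82.2 and 231 CPM, and elt-3 and nhr-25 were under 1 CPM throughout. The part of these markers in the results on sets A and D was not tested.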

How the data were processed

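The authors deposited 1 table per library with the unnormalized read count of each of 61451 transcripts. Per the submitters' processing notes, reads were processed with Trim Galore 0.4.4, STAR 2.5.4b and HTSeq 0.9.1 on ce11. The annotation release and the strand setting are not given in the sources used here. A read in more than 1 transcript was not counted (57.7 to 61.8% of aligned reads), so a gene with several transcripts keeps a part of its reads at most.

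Transcripts were matched to the Ensembl release 115 WBcel235 annotation (56781 by identifier, 4581 by sequence name, 89 under their own name), and counts were summed per gene. The 5 summary entries of each table were left out. All 10 libraries were fitted together in edgeR 4.0.16 (R 4.3.3), with filterByExpr at a minimum count of 10 (12267 genes), TMM factors, glmQLFit and glmQLFTest, a term per strain and 5 residual degrees of freedom. The 7 comparisons were adjusted by Benjamini-Hochberg over all tested genes, with a threshold of 0.05. A gene past it is called. All 98 members passed the filter, some only through the strain where they are high. Whether a strain's libraries are separate cultures is not given, so the p-values reflect only the spread among these libraries, which may be technical. That spread was uneven (median biological coefficient of variation 0.496 within the suppressed strains and 0.0802 within WT and R9Q), and 1 shared estimate was used for all. SEs were worked back from the test. For a fold against a strain with no count, each of its libraries was put at 3 counts. DESeq2 1.42.0 was an alternative.

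Named genes were those called in a comparison, the 8 most abundant, the 8 of widest range and 4 known stage or transmembrane genes. Also named were the 3 nearest to each set mean and the 3 largest separate changes per comparison and direction. Those changes needed a mean count of at least 50 over the 10 libraries. Other genes, such as col-74, col-76 and col-151, were chosen after their values were seen. The members and lists were chosen with earlier results of these data known. The fit was also run on simulated counts with the same small spread in every library. Since the spread of these data was uneven, that run does not test the fit under their conditions.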

Additional observations from a re-analysis of the deposited data

How the results depend on the processing

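Numbers of col genes called are given in the order R9Q against WT, T102I, G265R and unc-16 against R9Q, then T102I, G265R and unc-16 against WT, each series followed by the percentages of all genes called. They were 3, 5, 0, 1, 0, 0 and 5 as reported (0.31, 0.562, 0, 0.668, 0.0978, 0.465 and 4.46%). With upper quartile factors they were 1, 5, 0, 1, 0, 0 and 4 (0.236, 0.595, 0, 0.774, 0.106, 0.416 and 4.13%). Without a filter on low counts they were 19, 32, 29, 35, 26, 25 and 41 (1.28, 3.16, 1.83, 5.03, 2.39, 2.9 and 6.66%). With DESeq2 they were 14, 15, 14, 24, 3, 3 and 31 (2.05, 3.71, 1.87, 9.2, 2.99, 3.72 and 13.5%). A term for the library set of low mitochondrial share gave 17, 9, 7, 13, 6, 9 and 24 (1.83, 4.02, 1.03, 12.5, 3.2, 5.44 and 20.5%). The 4 libraries compared gave 50, 31, 0, 0, 19, 0 and 0 (37.7, 7.29, 0, 0, 4.07, 0 and 0%). Without the 3 libraries of low mitochondrial share, a setting chosen after seeing the data that leaves each suppressed strain with 1 library assumed to vary like the rest, 51, 56, 45, 49, 52, 39 and 58 were called (34.4, 38.1, 35.4, 52.5, 38.8, 42.6 and 56.1%). Several of these counts, such as the 49, 39 and 58, and the 13 with the term, are near or below the share of all genes. A minimum of 5 CPM in 4 libraries gave 3 in unc-16 against R9Q (1.59%). Leaving out each library in turn gave 0 to 4, 0 to 8, 0 to 3, 0 to 12, 0 to 1, 0 to 1 and 0 to 19. The causes were not tested.

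With the replicate number as a block, 0, 1, 0, 0, 0, 0 and 3 were called (0.0245, 0.196, 0, 0.147, 0.0163, 0.147 and 1.78%). Deviations of same-numbered libraries had r of -0.636 (T102I and G265R), -0.455 (T102I and unc-16) and 0.605 (G265R and unc-16). For the other pairs r was within 0.03 of 0. The library of low mitochondrial share has another replicate number in T102I than in G265R and unc-16. These r therefore do not settle whether the numbers pair the libraries. Of 984 alternative log2 fold changes of 52 named results, 0 reversed, 99 lost and 107 gained a call. The named results were called or did not overlap between the strains, so few reversals could arise. Their absence is therefore no test of direction. With 2 libraries per strain and genes near 3 counts, small differences were not detectable.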
